A study of Mus musculus with 183 samples.

Results

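The RNA that mouse embryonic stem cells (mESCs) still held after 360 min of actinomycin D, a drug that blocks transcription, was measured in clone 5F, with and without 4 days of 4-hydroxytamoxifen (4OHT). The 6 libraries were chosen by clone, time and day of 4OHT alone, as 3 at day 4 and 3 at day 0, out of 47 libraries of the actinomycin D time course and 183 samples of the series. They held at least 1 count for 30100 of 53380 genes. Clone 5F is 1 clonal line of 129×C57BL/6 mESCs with Skiv2l fl/fl alleles and Cre-ERT2 expressed from Rosa26, so that 4OHT (0.1 µM) leads to removal of exons 11 to 17 of Skiv2l. Both groups carried the same alleles, and day 0 received no 4OHT. The mock libraries (0 min) of each day had DMSO in place of actinomycin D, also with 3 libraries each. Clone 7E, used for comparison, is 1 Aven-/- line under the same 4OHT and actinomycin D schedule. It differs from clone 5F also in a 3xFLAG-Avi tag on both Skiv2l alleles and in a BirA-V6 allele (BirA-V5 in the study) opposite Cre-ERT2 at Rosa26. The labels of its time course libraries name no floxed Skiv2l allele, whereas the study describes the line as Skiv2l fl/fl. The study calls the replicates technical, so every p-value here measures only the spread between these libraries, and 1 clone says nothing about the spread between clones. Throughout, day 4 and day 0 stand for the libraries labelled so.

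SKIV2L is the helicase of the cytoplasmic SKI complex, which feeds RNA 3′ end first into the exosome and works at ribosomes, and AVEN binds this complex. Replication-dependent histone mRNAs lack introns and a poly(A) tail, end in a conserved stem-loop, and are degraded from the 3′ end when DNA synthesis or S phase ends. In a pool of RNA that is no longer being replenished, stable transcripts take up a growing share and short-lived ones a shrinking share, so a difference between days after actinomycin D combines the level at the start with the loss since then.

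The sequences that define the allele and the transcripts most affected are given first. Guides were read from the study's supplement, and their positions, the PAM and the stem-loops from the GRCm38 genome. The guides used to place loxP sites around the helicase exons are shown because they fix what 4OHT removes, with the PAM in capitals. Both lie on the minus strand, as does the gene.

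Skiv2l intron 10 guide, chr17:34846309-34846331: gacctgggctaacttaggaaAGG

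Skiv2l intron 17 guide, chr17:34844192-34844214: tctccccttaaccttaaatgGGG

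The next sequences are the 3′ stem-loops, in genome letters on the strand of each gene, of 7 histone genes among those with the largest differences at 360 min. Capitals mark the 16 letters of stem and loop that matched the searched motif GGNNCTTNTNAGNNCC, where N is any base.

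Hist1h1a, chr13:23764387-23764412, plus strand: ccaacGGCTCTTTTCAGAGCCaccaa

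Hist1h1d, chr13:23555782-23555807, plus strand: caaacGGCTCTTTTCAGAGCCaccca

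Hist1h2ak, chr13:21753377-21753402, minus strand: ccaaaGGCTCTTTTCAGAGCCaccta

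Hist1h2bb, chr13:23747198-23747223, plus strand: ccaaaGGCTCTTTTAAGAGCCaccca

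Hist1h3a, chr13:23761885-23761910, minus strand: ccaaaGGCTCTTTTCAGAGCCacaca

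Hist1h4f, chr13:23551286-23551311, minus strand: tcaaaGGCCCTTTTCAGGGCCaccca

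Hist2h4, chr3:96262934-96262959, minus strand: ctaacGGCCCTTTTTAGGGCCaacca

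The targeted gene was examined first. Levels are normalized CPM, counts brought to a common library total and then divided by size factors computed within a time point, so they are relative to the rest of the RNA at that time. Skiv2l (ENSMUSG00000040356, chr17:34839228-34850210) was at 184.7, 176.5 and 194.6 CPM at day 0 and at 165.2, 166.8 and 200.5 CPM at day 4 after 360 min. The groups overlapped, with a log2 fold change of −0.06 ± 0.09 (SE, adjusted p = 0.817, Benjamini-Hochberg, from the quasi-likelihood fit of edgeR). The mock difference was −0.01 (adjusted p = 0.914). In clone 7E the same comparison at 360 min gave −1.67, and the difference between the clones was −1.61 (adjusted p = 1.02e-05). Exons 11 to 17 hold 907 of 3951 exonic bases of the transcript used here (23.0%), so the loss of those reads alone would shift the count by −0.38 on the log2 scale. Gene counts thus did not mark the libraries labelled day 4 in clone 5F as Skiv2l deficient, and reads per exon were not analysed here. Aven was also alike, at −0.09 ± 0.07 (adjusted p = 0.644).

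The libraries were close in depth, with 26485103 to 29797655 gene counts. The replicate 3 libraries stood apart from replicates 1 and 2. Of 10180 genes with a mean of at least 100 counts, 688 were more than 0.5 lower on the log2 scale in replicate 3 of day 4 and 50 were more than 0.5 higher, against 42 and 7 at day 0. Of the lower genes 38 were the same on both days. Mitochondrial rRNA took 1.45%, 1.78% and 0.715% of the counts at day 0 and 2.20%, 3.60% and 0.389% at day 4, so that it was low in replicate 3 on both days. In the header numbering of the whole time course, the 12 libraries whose number is a multiple of 4, which include both replicate 3 libraries, held 0.234% to 0.737% mitochondrial rRNA and the other 35 held 0.956% to 3.60%. Replicate 3 of day 4 also ran with base composition: its median difference from the other libraries fell from 0.18 in the 10% of genes with the lowest GC content to −0.19 in the highest, against 0.03 to −0.03 at day 0. The summed CPM of the histone genes differed between replicate 3 and the mean of the others by −0.01 at day 0 and 0.09 at day 4 on the log2 scale, but the families moved apart at day 4, with H2B at 0.47, H4 at 0.23, H1 at 0.07, H2A at −0.13 and H3 at −0.20. Results that rest on these libraries are given with and without them.

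**Figure D1:**
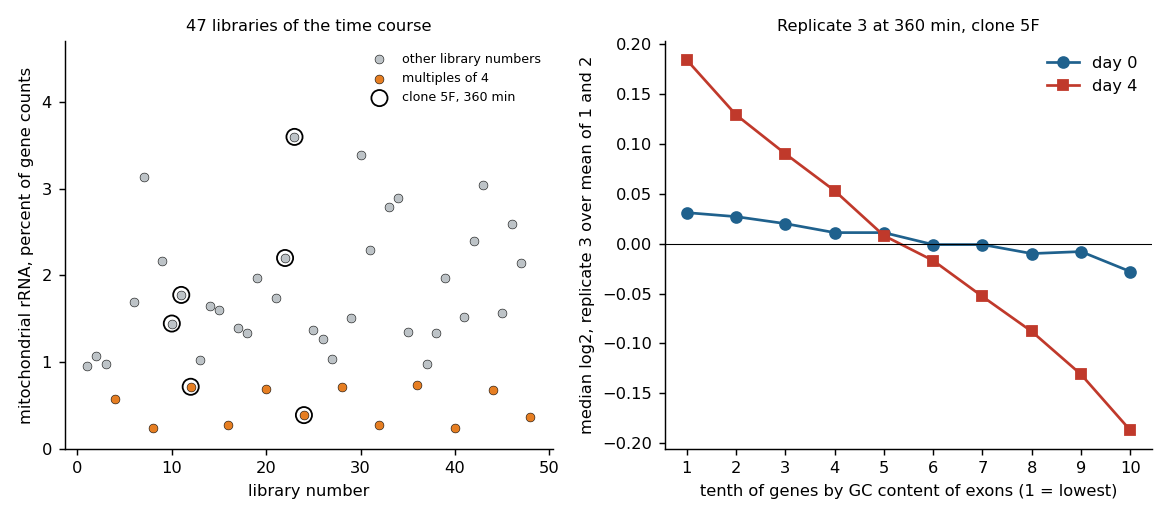
Left, percent of gene counts in mitochondrial rRNA (y) by library number (x) in the 47 libraries of the time course, with the numbers that are multiples of 4 and the 6 libraries at 360 min of clone 5F marked. The multiples of 4 all lie at or below 0.737% and the others at or above 0.956%. Right, median log2 ratio of replicate 3 to the mean of replicates 1 and 2 (y) over 10 classes of genes by GC content of exons (x, class 1 lowest), which runs from 0.18 to −0.19 at day 4 (squares) and stays between 0.03 and −0.03 at day 0 (circles).

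Cell type markers were those of mESCs. The 9 embryonic stem cell markers, among them Pou5f1, Sox2 and Nanog, summed to 3603 to 3755 CPM at day 0 and 3155 to 3344 CPM at day 4, and 1 of them, Nanog, was called lower. The 6 primitive endoderm markers summed to 75.4 to 76.2 CPM at day 0 and 43.9 to 53.5 CPM at day 4, with 3 below 1 CPM. Dab2 was called lower and carried the fall, with means of 55.4 and 29.5 CPM. Gata4 was level at 15.3 and 15.2 CPM and Gata6 was at 3.29 and 2.84 CPM. Sox7, Sox17 and Foxa2 were slightly higher at day 4. The 5 mesendoderm and neuroectoderm markers summed to 6.95 to 7.85 and 5.37 to 7.12 CPM, and the 4 fibroblast feeder markers tested to 9.44 to 10.5 and 10.6 to 15.3 CPM. In bulk RNA, fewer cells of a type and less RNA per cell cannot be told apart.

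The pool itself had nearly the same breadth at both days. Between 12553 and 12571 genes reached 1 CPM at day 0 and 12732 to 12821 at day 4, against 13295 to 13405 and 13426 to 13516 in the mock libraries. The pool was more concentrated than before the block: 666 to 681 genes made up 50% of the counts at day 0 and 645 to 664 at day 4, where the mock libraries needed 912 to 921 and 862 to 873. With 3 libraries against 3, the smallest two-sided p of an exact permutation test is 0.10, and both day differences at 360 min reached it without overlap. Gene counts per ERCC spike-in count were 164, 167 and 146 at day 0 and 145, 159 and 110.5 at day 4 (exact permutation p = 0.20), which is 45.5% and 40.6% of the mock ratio. The ratio of the day 4 to the day 0 mean was 0.872, and the libraries of the days overlapped. The 10 genes with the highest mean counts, which include Malat1, Rn7sk, Actb, Eef1a1, Eef2 and Hsp90ab1, were all uncalled between the days. Actb, for example, was at 5567, 5184 and 5473 CPM at day 0 and at 5431, 5608 and 5504 CPM at day 4.

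Against this even background a small set of genes stood out at day 4. Of 15409 genes tested, 85 were higher (0.552% of the genes tested) and 28 lower (0.182%) at an adjusted p under 0.05, 0.733% in all, and the median log2 fold change of all genes was −0.01. More genes had groups that merely did not overlap, 1448 higher (9.4%) and 1770 lower (11.5%). The counts of calls depended on single libraries. Without replicate 3 of day 4 they were 517 higher and 424 lower, and without replicate 1 or 2 of day 4 the lower genes numbered 4 and 29. Without 1 of the day 0 libraries there were 56 to 66 higher and 5, 5 and 13 lower. No gene of the 113 changed sign in any of these fits. The higher genes kept all 85 members without replicate 3 of day 4, and 59, 56 and 63 members without replicate 1, 2 or 3 of day 0. With scaling to each library's own spike-ins, which moves the median of all genes to −0.18, 45 genes were higher and 6 lower.

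**Figure D2:**
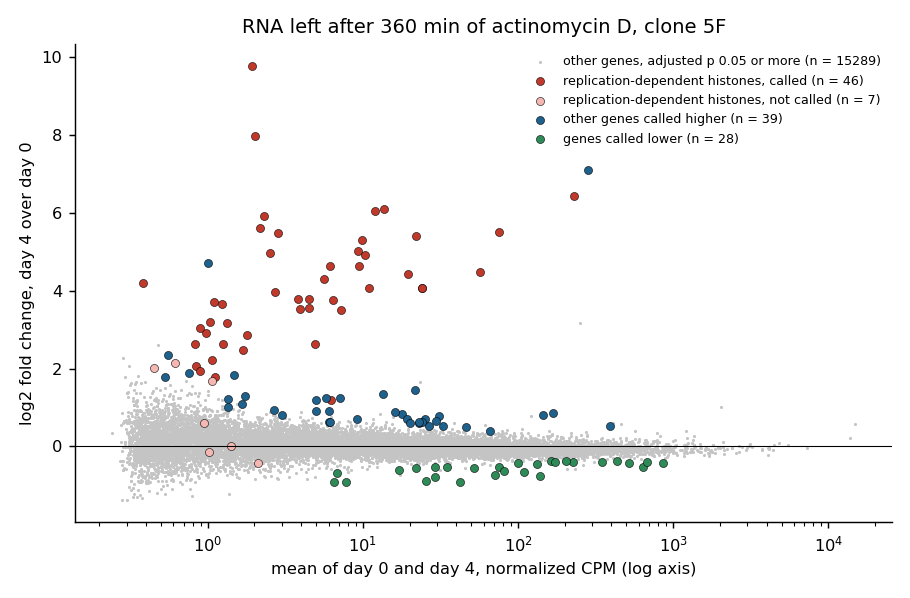
Log2 fold change at 360 min, day 4 over day 0 (y), against the mean normalized CPM of both days (x, log axis), 1 point per gene tested in clone 5F. The 46 replication-dependent histone genes that were called lie between 1.19 and 9.77, while the 39 other genes called higher have a median of 0.85 and the 28 called lower a median of −0.52.

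Replication-dependent histone mRNAs formed the largest group of the genes left in excess at day 4. Of 69 such genes in the table, 61 had a count and 53 were tested. Of these 46 were higher (background 0.552%) and 0 were lower at 360 min, with a median log2 fold change of 3.76 beside −0.01 over all genes. They made up 54.1% of the 85 genes called higher. The 3 day 4 libraries lay above all day 0 libraries for 50 of the 53, as they did for 9.4% of all genes tested. Histones were 42 of 45 genes higher with spike-in scaling. Without replicates 1, 2 and 3 they were 38 of 41, 39 of 52 and 49 of 231. Reads that map to several near-identical histone genes were dropped by the counting step, so values of single genes are less certain than those of families.

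As a share of all gene counts, these histone mRNAs made up 0.00479%, 0.00489% and 0.00479% at day 0, and 0.111%, 0.122% and 0.127% at day 4. The ratio of the means was 24.9, or 24.1 without replicate 3, and the groups did not overlap (exact permutation p = 0.10, the smallest possible, and 0.292 after adjustment over 35 lists). In the mock libraries the shares were 0.467% ± 0.024 and 0.796% ± 0.068 (SD, n = 3). Thus 1.03% of the mock share was left at day 0 and 15.1% at day 4. Most of the loss at day 0 was over at the first time point, with 1.61% left at 120 min (2 libraries), whereas at day 4 the share went from 35.9% at 120 min to 25.7% at 240 min and 15.1% at 360 min. Measured against the ERCC spike-ins, 0.470% of the mock histone level was left at day 0 and 6.09% at day 4.

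**Figure D3:**
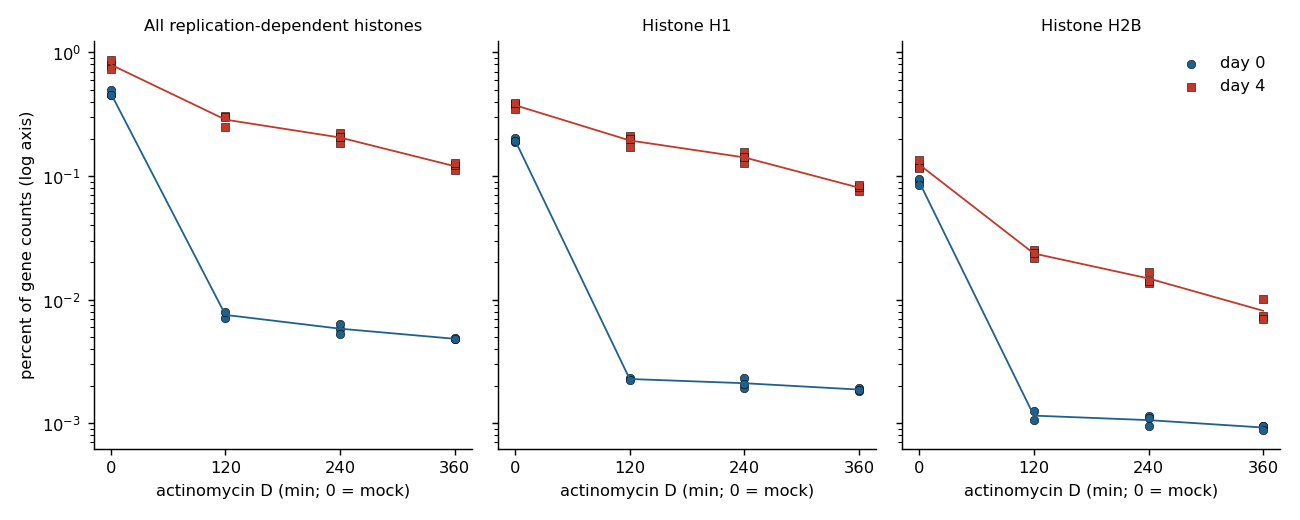
Percent of gene counts (y, log axis) in all replication-dependent histone mRNAs, in histone H1 and in histone H2B over 0 (mock), 120, 240 and 360 min of actinomycin D (x) in clone 5F. Points are libraries and lines join their means. At 120, 240 and 360 min every day 4 library (squares) lies above every day 0 library (circles), and day 0 is near its lowest level from 120 min on.

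All 5 histone families took part, to different extents. Linker histone H1, which binds DNA between nucleosomes, had 6 of 6 genes higher with a median log2 fold change of 4.27, and its share went from 0.00184%, 0.00194% and 0.00184% at day 0 to 0.0753%, 0.0821% and 0.0842% at day 4, a ratio of 43.0. Among the core histones, H3 had 9 of 9 tested genes higher (median 4.29) and a ratio of shares of 19.4, and H4 had 9 of 11 (3.97) and 14.8. H2A had 9 of 11 higher (3.69) and a ratio of 13.4. H2B had 13 of 16 (2.64) and 8.80. The H1 mRNAs also kept the largest part of their mock share at day 4, 51.9% at 120 min, 37.8% at 240 min and 21.5% at 360 min, against 0.961% at 360 min at day 0. At 360 min the day 4 values were 11.5% for H2A, 6.57% for H2B, 8.60% for H3 and 11.5% for H4, and the day 0 values 1.54%, 1.03%, 0.602% and 1.42%.

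Hist1h1a (ENSMUSG00000049539, chr13:23763666-23764406), whose stem-loop is the first printed above, carried the most counts of all histone genes at day 4. It was at 5.22, 5.27 and 5.20 CPM at day 0 and at 416, 458 and 478 CPM at day 4. The day 0 libraries were almost equal and every day 4 library was far above them, with a log2 fold change of 6.43 ± 0.10 (SE, adjusted p = 9.52e-11). Its normalized CPM at 360 min was 0.811% of the mock value at day 0 and 32.1% at day 4. These percentages are relative to the other RNA of each time point. Total gene counts per ERCC count had themselves fallen to 45.5% and 40.6% of mock, so less of the transcript was left than they show. In the mock libraries Hist1h1a was higher by 1.12, so that its difference at 360 min exceeded that of the mock libraries by 5.30.

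Hist1h1d, another linker histone, rose from 3.05, 3.09 and 3.70 CPM to 143, 145 and 157 CPM (5.50 ± 0.10). Hist1h1c differed by 4.47. Among core histones with large differences, Hist1h2bb went from 9, 9 and 15 counts at day 0 to 734, 551 and 982 counts at day 4 (6.08 ± 0.31). Hist2h4, on chromosome 3, went from 34, 19 and 32 counts to 1195, 1229 and 1205 counts, a log2 fold change of 5.40 ± 0.15. The other histones by the same ranking were Hist1h2ak at 6.04, Hist1h3a at 5.29, Hist1h3d at 5.01, Hist1h4f at 4.91, Hist1h3f at 4.63 and Hist1h4h at 4.62. In none of these did the libraries of the days come near each other. Hist1h2al and Hist1h4a are named after their values were seen, as the ends of the range. Hist1h2al, annotated as a processed pseudogene, had no count at day 0 and 101, 134 and 92 counts at day 4, which is at least 108-fold higher against a floor of 3 counts over the day 0 group. The smallest called difference among the histones was that of Hist1h4a, at 3.29, 4.29 and 3.77 CPM against 8.78, 8.64 and 8.51 CPM (1.19 ± 0.13, adjusted p = 0.000812).

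The 7 histone genes that did not pass were Hist1h2bc (−0.41, adjusted p = 0.399), Hist2h2be (−0.14), Hist3h2a (0.01), Hist1h2bk (0.61), Hist1h4b (1.69, adjusted p = 0.0639), Hist1h4j (2.01, adjusted p = 0.0752) and Hist1h2ai (2.14, adjusted p = 0.0713). The day 0 and day 4 levels of Hist1h2bc overlapped, at 2.78, 2.47 and 1.94 CPM against 1.86, 1.48 and 2.07 CPM.

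**Figure D4:**
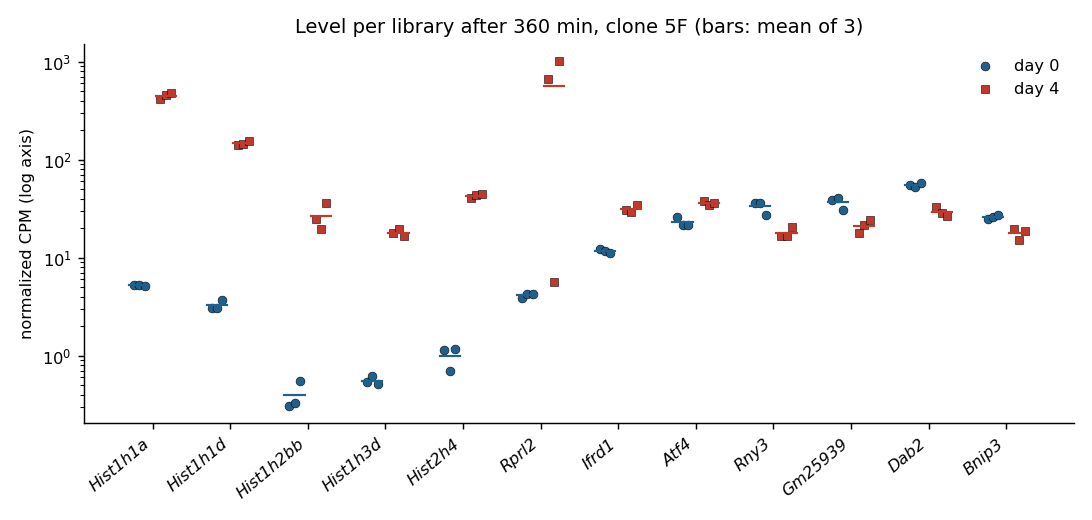
Normalized CPM (y, log axis) of 12 named genes (x) in each of the 3 day 0 libraries (circles) and 3 day 4 libraries (squares) at 360 min, with bars at the means. The 5 histones are separated between the days, with Hist1h1a at 5.20 to 5.27 against 416 to 478 CPM, while Rprl2 has 1 day 4 library, at 5.64 CPM, close above the day 0 libraries.

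The tested histones lie mainly on chromosome 13, which holds 45 of the 53. In the run from chr13:23531050 to 23934851 were 30 tested histones and 1 other tested gene, which differed by 0.02 and was not called. The stem-loop motif was searched within 200 bases after the stop codon on the gene strand. It was found in 50 of 52 tested histones with an annotated stop codon (96.2%), including 44 of 45 called ones, and in 55 of all 13293 genes with a stop codon (0.414%). On the opposite strand it was found in 5 genes (0.0376%). None of 33 other genes called higher and none of 21 genes called lower held it, which says little because the motif was rare outside the histone list. The 5 genes with the motif outside the histone list were Bst2, H2afx, Snrpa, Zfp521 and Nova2, at −0.23, 0.27, −0.21, 0.25 and 0.29, and none was called. The motif began a median of 33 bases after the stop codon (24 to 58). It took 8 forms, of which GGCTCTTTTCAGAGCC, as in Hist1h1a, was found in 28 genes, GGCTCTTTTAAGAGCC, as in Hist1h2bb, in 9 and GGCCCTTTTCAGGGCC, as in Hist1h4f, in 6. Being intronless went with the group as well: 94.2% of the tested histones had a single exon, against 5.33% of all genes with a stop codon. Neither trait set called histones apart from the others. Of the 7 histones not called, 6 held the motif and 6 had a single exon.

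Histones expressed outside S phase did not share the difference. Replacement histones are made from polyadenylated mRNAs throughout the cell cycle. Of 11 such genes, 0 were higher and 1 was lower (0.552% and 0.182% of all genes), with a median of −0.07. The lower one was H1f0, the replacement linker histone, at 60.8, 63.5 and 61.2 CPM at day 0 and 43.2, 44.4 and 39.7 CPM at day 4 (−0.54 ± 0.08, adjusted p = 0.00664). Its libraries did not overlap, but the call was absent without replicate 1 and without replicate 2. H3f3b, for H3.3, was at −0.08 (adjusted p = 0.813). The machinery around histone mRNA held no call either. Of 15 genes of histone mRNA processing and turnover 0 passed (median −0.01), and of 33 of DNA replication 0 (−0.10). The same held for 22 of mitosis (−0.11) and 21 of the SKI complex, exosome and ribosome rescue (−0.09). Over all genes 0.733% passed in either direction, so few calls would fall in lists of this size.

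The histone group was also higher at the other points of the same comparison. In the mock libraries of clone 5F 56 of 60 tested histones were higher, where 12.8% of all 16349 genes tested were, with a median of 0.70. At 240 min 50 of 54 were higher (background 0.762%), and in clone 7E at 360 min 51 were higher and 2 lower of 54 (14.1% and 13.8%). These groups share no library with the 6 considered here, and those of the same time point share only the size factors. The difference between 360 min and mock was tested as an interaction of day and time, which uses the same 360 min libraries. It was called higher for 44 of 60 histones (median 2.97), where 62 of 17036 genes passed in that direction (0.364%). That fit shares its spread over mock and 360 min libraries. The common coefficient of variation was 0.080 there, against 0.105 at 360 min and 0.0475 in mock. Interaction p-values can therefore be too small. Between the clones at 360 min, 0 histones were called more raised in 7E and 6 less raised. In that test 349 (2.15%) and 168 (1.04%) of 16204 genes were called higher and lower, 3.19% in all. The 6 were Hist1h1a (−1.20), Hist1h1b (−1.06), Hist1h1c (−0.88), Hist1h1d (−1.17), Hist1h1e (−1.61) and Hist2h4 (−2.15). A smaller fold change here did not mean a lower level of H1 mRNA in 7E. As a share of counts at 360 min, H1 was higher in 7E than in 5F on both days. The shares were 0.00484% against 0.00187% at day 0 and 0.112% against 0.0805% at day 4.

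The 39 other genes higher at 360 min had a median difference of 0.85. Only Rprl2 and Gm12260 lay above 3. Rprl2, annotated as a ribozyme gene of the RNase P RNA-like class, had the largest fitted change and the least even one, at 3.90, 4.22 and 4.28 CPM at day 0 and at 669, 5.64 and 1012 CPM at day 4. One day 4 library lay just above the day 0 libraries and far below the others of its group, so the log2 fold change of 7.09 ± 1.35 (adjusted p = 0.0465) rests on those others. The call was lost without any of the day 0 libraries, without replicate 1 of day 4 and with spike-in scaling. At 240 min the difference had the opposite sign, −6.81 (adjusted p = 0.0765). Gm12260, an unprocessed pseudogene named here after its values were seen, went from 0.0339, 0.0727 and 0.110 CPM to 2.20, 1.97 and 1.67 CPM (4.69 ± 0.36).

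Ifrd1, a transcriptional co-regulator, was at 12.2, 11.6 and 11.1 CPM at day 0 and 30.8, 29.3 and 34.3 CPM at day 4. The groups were well apart, with a log2 fold change of 1.44 ± 0.10 (adjusted p = 1.49e-05), and the mock difference was 1.00. Atf4, the transcription factor of the integrated stress response, was at 26.1, 21.3 and 21.4 CPM and 38.0, 34.4 and 36.4 CPM (0.66 ± 0.10, adjusted p = 0.0111), with 0.82 in the mock libraries. Both mRNAs are known substrates of nonsense-mediated decay. They were the 2 of 14 such genes that were higher (median 0.07), where 0.552% of all genes were. Ifrd1 stayed called without each replicate and with spike-in scaling, whereas Atf4 did not without replicate 1, without replicate 2 or with spike-in scaling. In clone 7E both differences were larger, by 0.74 (adjusted p = 0.0044) and 0.70 (adjusted p = 0.00353).

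The following genes were named after their values were seen. Rpl3, a large ribosomal subunit protein, was at 8.20, 6.47 and 8.02 CPM at day 0 and 18.6, 20.3 and 19.0 CPM at day 4 (1.35 ± 0.11, adjusted p = 0.000105). It was the 1 of 83 cytosolic ribosomal protein genes that was higher, and the median of that list was −0.01. Polr2a, the largest subunit of RNA polymerase II, went from 115, 134 and 108 CPM to 217, 219 and 210 CPM (0.85 ± 0.09). Txnip, an inhibitor of thioredoxin, was higher by 0.70, less than the 1.44 of the mock libraries. Lefty1, an inhibitor of Nodal, was higher by 0.89, and Jun, an immediate early transcription factor, by 1.10. These were single calls in their lists, where 0.552% of all genes were higher. The calls were 1 of 11 Lefty and Nodal genes (median 0.20) and 1 of 28 immediate early and short-lived regulators (0.24). Of 17 snoRNA host genes 1 was higher (Snhg5, 0.78, list median 0.24). Of these 39 genes only Ifrd1, Rpl3 and Gm12260 were called without replicate 1, and 11 without replicate 2.

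The p53 targets gave 3 higher genes of 21 and 0 lower (0.552% and 0.182% of all genes), with a median of 0.22. The 3 were Phlda3, an inhibitor of AKT signalling, at 0.61, Perp, a membrane protein of apoptosis and cell adhesion, at 0.51, and Plk2, a polo-like kinase, at 0.63. Phlda3 was at 18.3, 18.1 and 18.2 CPM at day 0 and at 25.6, 27.7 and 30.2 CPM at day 4. In the mock libraries it differed by 0.01 (adjusted p = 0.933). The difference of 0.60 between the time points passed (adjusted p = 0.0109) in the interaction fit, which shares its spread over both time points. In the mock libraries the list had 4 higher and 4 lower of 22 (median −0.04), where 12.8% and 11.6% of all genes were called, and at 240 min 0 of 21 in either direction (median 0.02). None of the 3 was called without replicate 1, without replicate 2 or with spike-in scaling, where the list median was 0.03.

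Genes lower at day 4 were fewer and their differences smaller, with a median of −0.52 over the 28. Dab2, an endocytic adaptor and marker of primitive endoderm, was at 54.9, 53.1 and 58.2 CPM at day 0 and at 32.8, 28.9 and 26.8 CPM at day 4 (−0.91 ± 0.09, adjusted p = 0.000511). It was the only one of the 28 that stayed called both without replicate 1 and without replicate 2. Cubn, for the endocytic receptor cubilin, was at 123, 142 and 133 CPM against 89.5, 85.8 and 78.6 CPM (−0.65 ± 0.08), and Klb, the coreceptor beta-klotho, was lower by 0.67. Pycr1, of proline synthesis, fell by 0.61 and Bnip3, a mitophagy receptor, by 0.56. Nanog, a core pluripotency factor, was at 256, 254 and 259 CPM against 198, 193 and 197 CPM (−0.39 ± 0.07, adjusted p = 0.0206), the only call among 22 naive pluripotency genes (median −0.09). Dab2 and Cubn were also the calls among 17 primitive endoderm genes (median −0.03), where 0.182% of all genes were lower.

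Small noncoding RNAs made up 7 of the 28. They were 5 of 18 small nuclear, 1 of 77 small nucleolar and 1 of 20 miscellaneous RNAs tested, where 0.182% of all genes were lower. Without replicate 1 and without replicate 2 only 1 of the 28 stayed called, Dab2, so these calls rest on those libraries. Rny3, a Y RNA that binds the Ro60 protein, was at 36.0, 36.6 and 27.6 CPM at day 0 and at 16.7, 16.5 and 20.7 CPM at day 4 (−0.89 ± 0.13, adjusted p = 0.00916). Of 18 small nuclear RNAs tested, the RNA components of spliceosomes, 5 were lower and 0 higher (0.182% and 0.552% of all genes), with a median of −0.59. They were Gm25099 (−0.90), Gm25939 (−0.79), Gm25360 (−0.76), Gm24407 (−0.74) and Gm24265 (−0.62). As a share of the counts, small nuclear RNAs took 0.0800%, 0.0765% and 0.0643% at day 0 and 0.0410%, 0.0487% and 0.0546% at day 4 (exact permutation p = 0.10, adjusted 0.60 over 15 classes). The groups did not overlap, but replicate 3 lay toward the middle on both days, and 0 of the 5 were called without replicate 1 or without replicate 2, 2 of the class with spike-in scaling and 9 without replicate 3. Snora23 (−0.92) was the only one called of 77 small nucleolar RNAs (median −0.23). Among the other classes, 0 of 286 lincRNAs passed in either direction, where 0.733% of all genes did.

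Several of the lower genes act in amino acid synthesis or tRNA charging. Psat1, of serine synthesis, was at 751, 758 and 746 CPM at day 0 and 544, 510 and 520 CPM at day 4 (−0.52 ± 0.07, adjusted p = 0.00334), and the groups were well apart. Asns, asparagine synthetase, was at 402, 397 and 386 CPM against 316, 290 and 290 CPM (−0.40 ± 0.07, adjusted p = 0.0271). Named after their values were seen, Psph (−0.52), Gpt2 (−0.43), Aars (−0.42), Sars (−0.41), Nars (−0.40), Aldh18a1 (−0.40), Mthfd2 (−0.38), the arginine transporter Slc7a3 (−0.37) and Bcat1 (−0.37) were also lower. This theme was not a list of its own and has no test.

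The list of ATF4 and integrated stress response genes, which overlaps those genes, lay mostly above zero in the mock libraries and mostly below zero at 360 min. At 360 min 2 of 24 were higher and 5 lower (0.552% and 0.182% of all genes), with a median of −0.19. In the mock libraries 17 were higher and 1 lower (12.8% and 11.6% of all genes), with a median of 0.44. At 240 min 4 were higher and 0 lower (0.762% and 0.13%), with a median of −0.02. In the day by time interaction 9 of 24 were called lower and 0 higher (background 0.205% and 0.364%), with a median of −0.47. The 9 were Chac1 (−2.36), Vldlr (−2.07), Nupr1 (−1.31), Trib3 (−1.10), Mthfd2 (−0.95), Aldh18a1 (−0.78), Psat1 (−0.43), Asns (−0.39) and Slc3a2 (−0.38). Thus Mthfd2, a mitochondrial folate enzyme, was higher by 0.57 in the mock libraries and lower at 360 min, at 183, 180 and 186 CPM against 145, 143 and 135 CPM. Nupr1, a stress-induced chromatin protein, differed by 0.79 in the mock libraries and by −0.53 at 360 min (adjusted p = 0.0837). As a share of counts the list went from 0.247%, 0.240% and 0.235% to 0.201%, 0.204% and 0.186% at 360 min (exact permutation p = 0.10, the smallest possible, adjusted 0.292). The 5 lower calls at 360 min were absent without replicate 1, without replicate 2 and with spike-in scaling, and the 9 interaction calls became 3, 6 and 4 in those fits.

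**Figure D5:**
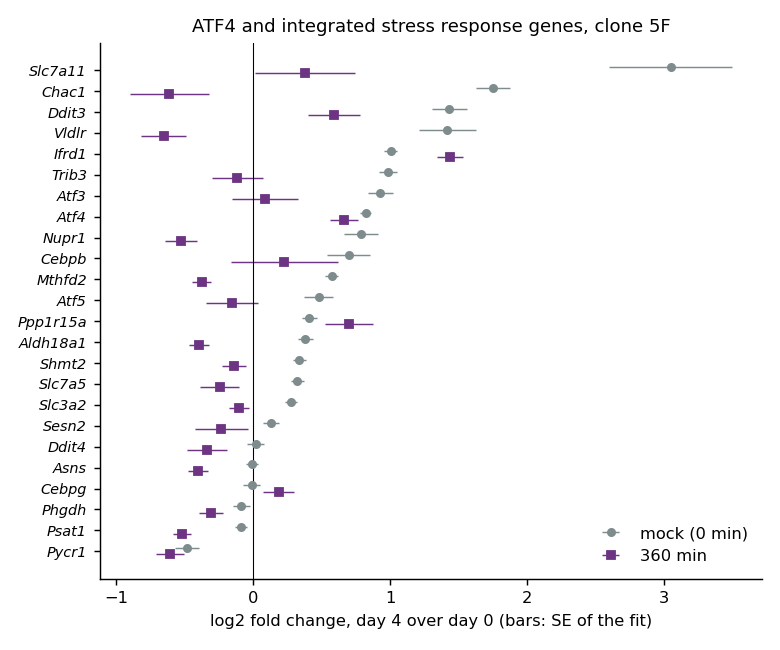
Log2 fold change, day 4 over day 0, with the standard error of the fit (x), of the 24 ATF4 and integrated stress response genes (y) in clone 5F, in the mock libraries (circles) and at 360 min (squares). The medians are 0.44 and −0.19, and the squares lie left of the circles for most genes.

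Among interaction calls whose mean reached 100 counts and whose groups at 360 min did not overlap, the lowest were Slc1a4, a neutral amino acid transporter (1.00 in mock, −0.37 at 360 min, interaction −1.37, adjusted p = 3.99e-06), Nupr1, Mthfd2, Pck2 (0.37, −0.48, −0.85), Gpt2 (0.40, −0.43, −0.84) and the small nucleolar RNA Snord17 (0.22, −0.59, −0.81). Under the same limits, which leave out Hist1h2al and other histones of low count, the 6 highest were all histones, from Hist1h2bb (5.48) and Hist1h1a (5.30) to Hist1h1d (4.37). In all, 62 genes had a larger and 35 (0.205%) a smaller difference at 360 min than in the mock libraries. Without replicate 1, 2 or 3 in turn these were 33 to 60 and 5 to 37.

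Most of the many mock differences were no longer called at 360 min, in libraries that spread more. The mock libraries gave 2095 higher and 1903 lower genes (12.8% and 11.6% of 16349). Among the higher ones tested at 360 min, 81.2% kept the sign, with a median of 0.15 at 360 min and 0.33 in mock, and among the lower ones 84.1%, with −0.13 and −0.25. The median SD between libraries on the log2 scale was 0.089 at day 0 and 0.135 at day 4 after 360 min, and 0.073 and 0.080 in mock. With replicates 1 and 2 alone the 360 min values were 0.064 and 0.092.

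The housekeeping and structural lists held hardly any call at 360 min, where 0.733% of all genes were called. Ribosomal protein mRNAs took 3.11%, 3.05% and 3.40% of the counts at day 0 and 3.02%, 2.96% and 3.62% at day 4, high in replicate 3 on both days. Translation factors with 5′ TOP mRNAs (0 of 17 called), respiratory chain mRNAs (0 of 79, median −0.08), ER chaperones (0 of 21, 0.03), mitochondrially encoded mRNAs (0 of 7, 0.13), nuclear long noncoding RNAs (0 of 14, 0.04) and zinc finger protein mRNAs (0 of 341, 0.02) had no call. Of individual genes of interest to the study, Calr (−0.05), Pdia4 (0.03), Trim28 (−0.23), Sfpq (−0.26) and Pim3 (−0.00) were not called.

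Over all genes, the differences were ordered weakly by how stable an mRNA is. Genes were put in 10 classes of equal size by their ratio of 360 min to mock in the day 0 libraries of clone 7E, which are not among the 6. The median log2 fold change ran from 0.15 in the least stable class to −0.09 in the most stable one. Without the 51 histones the first value was 0.14, and without replicate 3 the ends were 0.15 and −0.10. The least stable class held 60 of the genes called higher and 51 histones, and 46 histones were called higher in all. Most of these 60 calls were thus histones, and the rest were not counted apart. The most stable class held 16 of the genes called lower. The mock medians of the same classes lay between −0.02 and 0.00. These medians are descriptions, since genes in a library are not independent replicates.

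Binding ratios that the authors deposited from crosslinking of SKIV2L, AVEN, MTR4 and XRN1 to RNA (CRAC) were matched to 7213 tested mRNAs, whose median difference at 360 min was −0.04. Of the 361 mRNAs (5%) with the largest ratio for SKIV2L, 17 were higher and 2 lower at 360 min, with a median of −0.07. The background was 0.552% and 0.182% over all genes tested, not over the matched mRNAs. The same top group held 17 of the 45 histone mRNAs matched. How many of the higher genes in a top group were histones was not counted. For AVEN 10 were higher and 0 lower, with 7 histones and a median of 0.01. For the nuclear helicase MTR4 and the 5′ exonuclease XRN1 no gene of the top group was called, and the medians were 0.02 and −0.05.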

How the data were processed

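Total RNA was collected with ERCC spike-ins in the lysis buffer, per the study's methods. Per the labels it was depleted of rRNA with Ribozero and made into libraries with TruSeq v2, a kit that does not mark strand. The authors aligned reads with STAR to GRCm38 (mm10) with ERCC sequences, kept uniquely mapped reads, and deposited counts per gene without normalization, technical replicates unpooled. The binding values the authors deposited are ratios built from CRAC reads pooled over libraries. The tables also hold the authors' own fold changes and p-values, which were not used. Actinomycin D doses in the labels and the methods differ and are not printed.

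Column headers matched sample labels, with 0 unmatched columns. Of 53380 genes, 53275 were given Gencode M21 symbols. Genes passing filterByExpr were tested with edgeR 4.0.16 (quasi-likelihood, R 4.3.3), Benjamini-Hochberg threshold 0.05, DESeq2 1.42.0 median-ratio size factors within each time point over both clones, and no block. Interactions of day with time and of day with clone were fitted on 12 libraries each, with the spread shared over those libraries. Normalized CPM are relative to the other RNA of a time point. Spike-in scaling used 34 ERCC sequences with a mean above 50 counts. Shares were compared by two-sided exact permutation tests. Stability classes used a pseudocount of 0.1 CPM and a mock minimum of 1 CPM, and replicate 3 ratios a pseudocount of 1 CPM. Stem-loops were searched in GRCm38.

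The genes, lists, tests and alternatives were chosen with earlier results of these data known. Named are the 12 highest and 12 lowest fold changes among called genes whose groups do not overlap and whose mean reaches 100 counts, 6 each for the day by time interaction, genes the study names, the 3 members of highest count per list described, and the 10 highest genes. Others, list members with calls included, were named after their values were seen.

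No pair of replicates agreed within sampling noise: the chi-square per gene was 4.85 to 15.7 at day 0 and 19.1 to 90.9 at day 4. Counts of 15409 genes were simulated for the 360 min comparison, with 200 changed. At log2 changes of 0.5, 1 and 2, 44.5%, 97.5% and 100% of these were recovered, with 15, 12 and 17 false calls. Smaller differences can thus be missed at this spread, and some calls near 0.5 can be false. The counts were drawn independently for each gene and library, so the shift that genes shared in replicate 3 was not simulated. Other scalings, filters, tools, a replicate block and left-out libraries were tried.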

Additional observations from a re-analysis of the deposited data

Results flagged for a closer look

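The following differences between day differences passed a test of the difference itself. The rank test for a single outlying value needs 4 samples and was not run on these groups of 3. The day difference at 360 min differed from that of the mock libraries for 97 of 17036 genes (0.569%). That fit shares its spread over both time points, so its p-values can be too small. Among the histones the excess at 360 min was 5.30 on the log2 scale for Hist1h1a, 5.48 for Hist1h2bb, 4.71 for Hist1h2ak, 4.37 for Hist1h1d, 3.80 for Hist2h4, 4.40 for Hist1h3a and 4.42 for Hist1h3d. It was 3.96 for Hist1h4f, 4.14 for Hist1h3f, 3.82 for Hist1h4h, 3.59 for Hist1h1c, 2.94 for Hist1h2aa, 2.35 for Hist1h2ae, 3.00 for Hist1h2bj, 2.38 for Hist2h2bb, 3.04 for Hist4h4 and 3.65 for Hist1h4d. The difference was smaller at 360 min for genes of amino acid supply and stress, by −1.37 for Slc1a4, −1.31 for Nupr1, −0.95 for Mthfd2, −0.85 for Pck2, −0.84 for Gpt2, −0.43 for Psat1 and −0.39 for Asns, and by −0.81 for the small nucleolar RNA Snord17.

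Between the clones, the day difference at 360 min differed for 517 of 16204 genes (3.19%). It was lower in clone 7E than in clone 5F for Hist1h1a (−1.20), Hist1h1d (−1.17), Hist2h4 (−2.15) and Hist1h1c (−0.88), for the targeted gene Skiv2l (−1.61) and for the DNA methyltransferase Dnmt3a (−0.56). It was higher in clone 7E for Ifrd1 (0.74), Atf4 (0.70) and Snord17 (0.73), the basement membrane collagen Col4a1 (0.90), and the cytoskeletal genes Nes (0.86), Tagln (1.14) and Vim (0.34). The clones differed in Aven genotype, in the 3xFLAG-Avi tag on Skiv2l and in the BirA allele at Rosa26, and each is a single line, so these differences and the clone cannot be told apart.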

How the results depend on the processing

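No gene of the 113 called at 360 min changed sign under any alternative. Higher (85) and lower (28) genes numbered 45 and 6 with spike-in scaling, 150 and 75 with DESeq2, 307 and 128 without a filter on low counts, and 438 and 353 when fitted with all 23 libraries of clone 5F. A mean of at least 100 counts left 48 higher genes. Chosen after seeing the data, removal of the histones left 24 and 14, and a term for library numbers that are multiples of 4 gave 307 and 240. Leaving out replicates or single libraries gave 41 to 517 higher and 1 to 424 lower genes. Deviations of same-numbered libraries of the 2 days hardly correlated for replicates 1 and 2 (0.013 and 0.04). For replicate 3 they did so in part (0.264), and its correlations with the other numbers were −0.1 to −0.212. The main fit has no block and leaves this shared part of replicate 3 in its spread. A replicate block gave 240 higher and 135 lower genes, 248 and 105 at 240 min, and 931 between the clones.

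In the mock libraries spike-in scaling gave 1063 higher genes (2095 without it), and leaving out libraries gave 1093 to 2248 higher and 762 to 2151 lower. Of the 62 larger and 35 smaller differences at 360 min against mock, spike-in scaling left 40 and 8, DESeq2 gave 110 and 97, the library term 113 and 153, and leaving out replicates 33 to 60 and 5 to 37. At 240 min (117 higher, 20 lower) these were 57 and 4, 188 and 65, 317 and 209, and 54 to 268 and 0 to 227. In clone 7E at 360 min (2147 higher, 2106 lower) spike-in scaling gave 251 and 12286, since total RNA per spike-in differed, and leaving out replicates 1073 to 2074 and 725 to 2077. Between the clones (517) spike-in scaling gave 8968, the library term 1092 and leaving out replicates 15 to 339. The ribosomal protein share, log2 0.006 between the days, was 0.029 without replicate 2 and −0.041 without replicate 3. Apart from the constructions named, the cause of these shifts was not tested. Of 1080 values for 135 named genes, 48 lost and 33 gained a call. With 3 technical libraries a group, differences under about 0.5 are poorly covered.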
